A study of Marchantia polymorpha with 6 samples.

Results

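Repeats of unknown class are stretches of DNA that occur many times in a genome and that the annotation assigned to no known kind of transposable element. They were taken here as every row of the element annotation of the liverwort Marchantia polymorpha whose class and family were both given as Unknown and that lay on chromosomes 1 to 8, the autosomes. This gave 16112 copies in 288 families, out of 89262 element copies on all sequences. The series set out to see how losing MpMET changes which genes and elements are transcribed. It has 3 libraries of poly(A) RNA from Tak-1, a male line used as wild type, and 3 from the mutant Mpmet-3, all from thalli (the flat haploid plant body) of 14 days, with no other allele or agent in the labels. MpMET belongs to the DNA methyltransferases that copy CG methylation onto newly made DNA. Both files hold genome annotations and no value of any library, so nothing is said of expression in either line, and sequencing depth is unknown.

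Repeat finders collect any sequence that recurs often enough. Sequences with the terminal repeats or the enzymes of a known transposon receive the name of its superfamily. What is left over can hold old and worn elements, satellite DNA repeated head to tail, and pieces of genes that exist in many copies, such as large families of enzymes. In studies of DNA methylation the distinction matters, because transposable elements are common targets of methylation in plants while ordinary genes are expressed. Positions are those of the build MpTak1 v5.1 revision 2, and a family is the set of copies with the same identifier.

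Most families were of moderate size and spread over the whole genome. The number of copies per family ran from 1 to 554 with a median of 43.5 (quartiles 23.75 and 72). In all, 154 families had copies on all 8 autosomes, 17 on a single one, and 34 had more than 100 copies. The 10 families with most copies held 16.7% of the copies, so no small group made up the class. Copies were short, from 80 to 16555 bp with a median of 219 bp (quartiles 124 and 420). The 992 copies longer than 1000 bp (6.16%) held 30.5% of the summed length of 6100774 bp. All 16112 copies carried identifiers of the kind given to matches found by homology, as did 87937 of the 89262 element copies of any class on all sequences.

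The family with most copies was TE_00000111, with 554 copies of a median length of 112 bp and none longer than 270 bp. It was scattered: 19 of its copies lay in runs, and 1 touched the exon of a coding gene. TE_00000000 followed with 408 copies of a median of 258 bp, none in an exon and none in a run. TE_00000026, with 173 copies of a median of 137 bp, was likewise in no exon and in no run. Nearly all copies of these 3 families lay wholly outside genes: 546 of 554, 407 of 408 and 173 of 173. TE_00000001 with 240 copies (median 539 bp) and TE_00000013 with 181 (median 520 bp) had 1 copy each in a coding gene.

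By summed length TE_00000112 came first with 211798 bp in 227 copies, the longest of 4907 bp. TE_00000030 held 162016 bp in 99 copies and had the highest median length of any family, 1561 bp. The longest single copy, of 16555 bp, belonged to TE_00000180, a family of 62 copies of which 53 lay on 1 chromosome. TE_00000144 had 43 copies with a longest of 10428 bp.

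**Figure D1:**
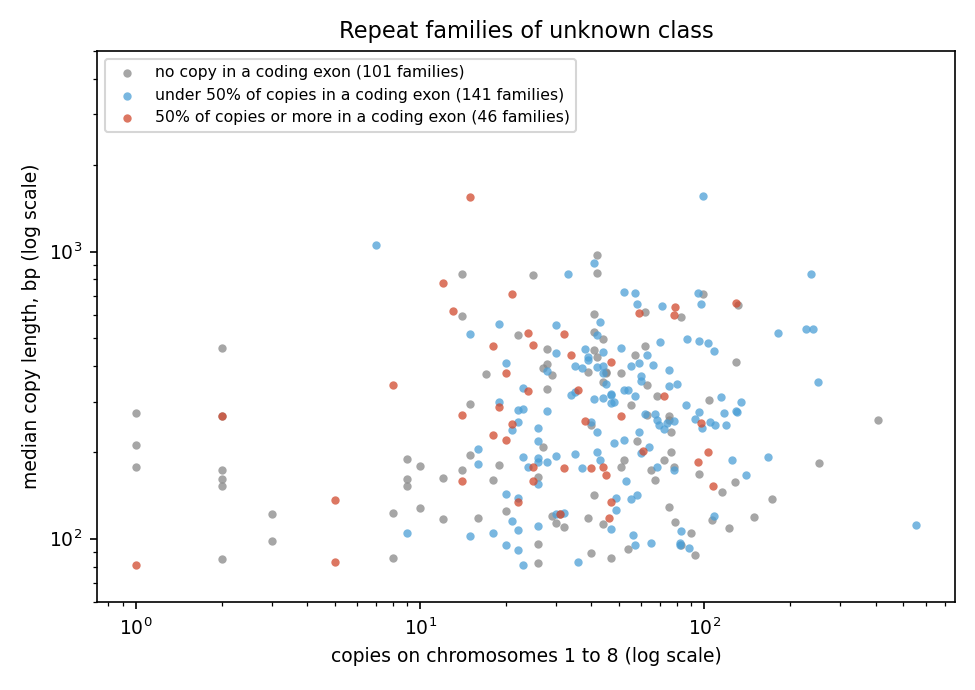
Each point is a family of unknown class, with its number of copies on the autosomes (horizontal, log scale) against its median copy length in bp (vertical, log scale). Colours give the share of copies with at least 1 bp in an exon of a coding gene: the 46 families with 50% or more (red) lie among the others in copy number and length, with the largest family, TE_00000111, at the right at 554 copies.

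Repeats of unknown class lay inside genes more often than other elements did. Over the 8 autosomes the share of their bp in exons ran from 5.72% on chromosome 7 to 17.4% on chromosome 5, with a median of 10.6%. For all other elements the highest autosome had 3.04%, so the groups did not overlap. The means were 11.1% ± 3.96 (SD, n = 8) and 1.96% ± 0.565 (SD, n = 8), with the unknown class higher on 8 of 8 autosomes (difference 9.12 percentage points; exact 2-sided sign-flip permutation over chromosomes, adjusted p = 0.0132 over 22 tests). In introns the shares were 6.72% ± 1.49 and 1.39% ± 0.256 (n = 8 each; higher on 8 of 8; exact permutation, adjusted p = 0.0132). An unadjusted p of 0.00781 is the smallest that 8 chromosomes allow, and chromosomes of 1 annotated genome say nothing of variation between plants.

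Exon shares were also compared with 2 kinds of element that resemble them. Mutator elements (DTM), DNA transposons that often carry pieces of genes in plants, had 7.26% ± 1.94 (SD, n = 8) of their bp in exons, a difference of 3.82 percentage points (unknown class higher on 7 of 8 autosomes; exact permutation, adjusted p = 0.0322). LTR elements of no superfamily, retrotransposons flanked by long terminal repeats, had 3.37% ± 2.53 (SD, n = 8, unknown class higher on 8 of 8, exact permutation, adjusted p = 0.0132). In introns Mutator elements had 4.17% ± 0.853 and these LTR elements 0.997% ± 0.482 (SD, n = 8 each). Against each the unknown class was higher on 8 of 8 autosomes (exact permutation, adjusted p = 0.0132 for both). Copies of unknown class were shorter than other elements: the median length over the autosomes was 220.1 ± 13.5 bp against 401.4 ± 22.6 bp (n = 8 each; shorter on 8 of 8; exact permutation, adjusted p = 0.0132). Against Mutator elements the difference in median length was -19.7 bp ± 19.5 (SD, n = 8; shorter on 7 of 8; exact permutation, adjusted p = 0.0477).

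**Figure D2:**
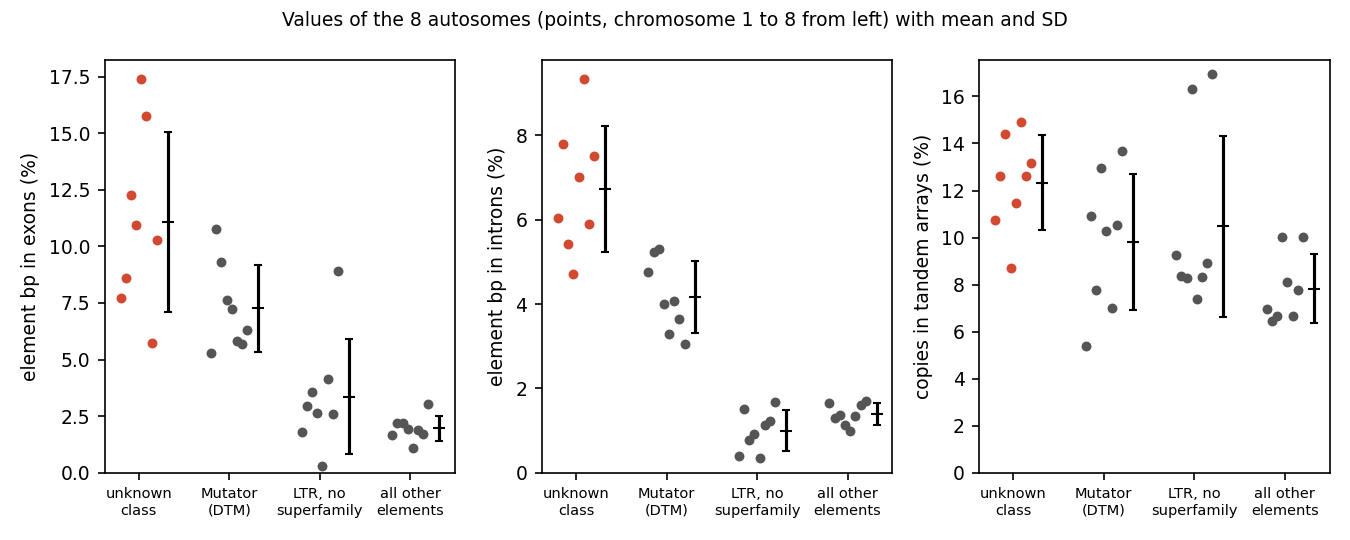
Percent of element bp in exons (left) and in introns (middle) and percent of copies in runs of at least 3 copies (right) for 4 kinds of element. Points are chromosomes 1 to 8 from left to right, and bars give mean and SD over them. In exons the unknown class (red) had a mean of 11.1% against 1.96% for all other elements, while in runs it overlapped every other kind.

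Coding genes held most of these exonic copies. At least 1 bp of unknown class lay in an exon of 1035 of 18134 coding genes (5.71%), and 2052 copies (12.7%) from 187 families did so. Per autosome the share of copies in a coding exon was 12.3% ± 4.78 (SD, n = 8), from 5.20% on chromosome 1 to 20.9% on chromosome 5. For all other elements it was 3.002% ± 0.558 (SD, n = 8; unknown class higher on 8 of 8; exact permutation, adjusted p = 0.0132). Mutator elements were closer, at 8.09% ± 2.004 (SD, n = 8), with the unknown class higher on 7 of 8 autosomes (exact permutation, adjusted p = 0.0322). Of the overlapped bases in coding genes, 454619 bp (72.0%) were coding sequence and 176986 bp untranslated. In 269 of the genes at least 50% of the exonic bp was of unknown class. A further 752 copies lay wholly within an intron, and 13186 (81.8%) touched no gene.

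The copies in coding exons were concentrated in certain families. In 46 families at least 50% of the copies touched a coding exon, and in 11 families at least 90% did. These 46 families held 1774 copies and supplied 1280 of the copies found in coding exons. In 101 families, with 5196 copies, no copy touched a coding exon. There were 55 families found in at least 10 coding genes each, and together these reached 738 of the 1035 genes (71.3%).

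Within such families the copies mostly kept 1 orientation to their genes. Over all families, 1043 of 2086 pairs of copy and coding gene were on the same strand. Within families the pairs were less even: of the 55 families in at least 10 genes, 17 lay on the strand of the gene in every pair and 14 on the opposite strand in every pair. In 45 of the 55, at least 90% of the pairs had the same orientation, 24 along the gene and 21 against it. Among other elements, 9 of the 27 families in at least 10 coding genes reached 90%. Each copy counts as an observation here though copies of a family share their origin, so these counts carry no test. Over the autosomes the share of copies on the strand of the exon was 47.2% ± 10.9 (SD, n = 8), which did not differ from 50% (exact permutation, adjusted p = 0.507). Strand is relative to the library entry that a family matches, and the direction of the entries was not read. Same and opposite can thus be compared within a family but not between families. This test pools families and so cannot decide on a direction. In the 55 families, 1421 of 1628 pairs (87.3%) included coding sequence, against 1659 of 2086 pairs (79.5%) over all families.

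Where the genes reached by a family had symbols, these were mostly alike. Symbols could be given to 2864 coding genes by locus number and gene length, and 382 of these (13.3%) held a repeat of unknown class in an exon, against 653 of the 15270 genes without a symbol (4.28%). The 9 symbols with most genes reached supplied 283 of the 382, so the higher share was not spread evenly over named genes. Of the 55 families, 32 had at least 5 genes with a symbol, and in 31 of these at least 80% of those genes had the same symbol apart from its number. Of the 63 symbols borne by at least 10 genes, 39 had no gene reached, 43 were below the 5.71% of all coding genes, and 7 had at least 50% of their genes reached.

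**Figure D3:**
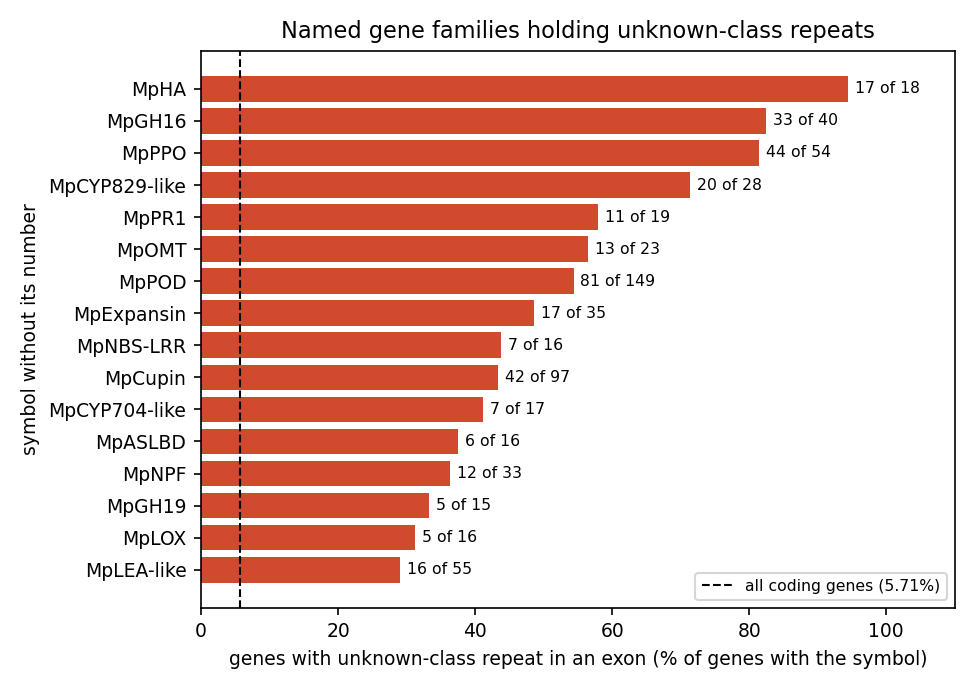
Percent of the coding genes of a symbol that had at least 1 exonic bp of unknown class, for the 16 symbols with at least 5 such genes. Counts stand at the bars, and the dashed line marks the 5.71% of all coding genes; bars run from 29.1% (MpLEA-like) to 94.4% (MpHA).

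Peroxidases were the largest group. MpPOD genes are named for secreted plant peroxidases, enzymes that act on the cell wall and in defence, and 81 of 149 (54.4%) held repeats of unknown class, which made up a median of 37.4% of the exonic bp of those 81. TE_00000014 was found in 70 coding genes, 58 of them on chromosome 5, and 54 of its 60 genes with a symbol were MpPOD. All 76 of its pairs with a gene were on the opposite strand, all included coding sequence, and the middle of the overlap lay at a median of 30.5% of the coding sequence (quartiles 20.9% and 32.2%). TE_00000028 was found in 49 genes, all 55 pairs on the strand of the gene, at a median of 72.5% of the coding sequence (quartiles 70.9% and 77.4%). Of these 70 and 49 genes, 45 held both families, which differed in their median place. The 70 genes of TE_00000014 had a median coding sequence of 978 bp in 5 merged exons, a median of 54.6% of exonic bp of unknown class, and a median of 0% in any other element.

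TE_00000189 was found in 25 genes, 22 of them on chromosome 5, and 20 of the 21 with a symbol were MpPOD. TE_00000225 was found in 23 genes, of which 11 lay on chromosome 6, and all 19 with a symbol were MpPOD. The genes of TE_00000014 were close together: 54 of the 70 (77.1%) had a neighbouring coding gene that held the same family. For TE_00000028 this was so for 41 of 49 genes.

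The polyphenol oxidases, copper enzymes that oxidise phenolic compounds, were reached in 44 of 54 MpPPO genes (81.5%). TE_00000054 lay at a median of 15.1% of the coding sequence (quartiles 14.2% and 16.2%) in 24 genes, all 24 pairs on the opposite strand. TE_00000055 lay at 55.1% (quartiles 54.1% and 56.9%) in 39 genes, and 38 of its 39 pairs were on the opposite strand. TE_00000024 lay at 87.5% in 20 genes, with 19 of 20 pairs on the opposite strand. All 24 genes of TE_00000054 also held TE_00000055, and 19 of the 20 genes of TE_00000024 did. In the 24 genes of TE_00000054 the unknown class covered a median of 85.1% of the exonic bp. It was 45.8% in the 39 genes of TE_00000055 and 27.25% over all 44 MpPPO genes reached.

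MpGH16 genes belong to glycoside hydrolase family 16, enzymes that cut and rejoin sugar polymers of the cell wall. Of 40, 33 (82.5%) were reached, all by TE_00000177. This family had 79 copies in 39 coding genes, all on the opposite strand, so genes held more than 1 piece on average. The genes lay on 7 autosomes, with 14 on chromosome 3.

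In the MpHA genes, named for the proton pump of the plasma membrane, 17 of 18 (94.4%) were reached, the highest share of any symbol. TE_00000199, TE_00000165 and TE_00000280 each reached 17 MpHA genes, and any pair of these families shared 17 coding genes, at medians of 9.98%, 43.3% and 82.0% of the coding sequence. All 44 copies of TE_00000280 and all 47 of TE_00000165 lay in a coding exon. The genes of TE_00000280 had a median of 21 merged exons and a coding sequence of 2847 bp.

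Cytochrome P450 genes of the MpCYP829-like group, enzymes that oxidise small molecules, were reached in 20 of 28 cases (71.4%). TE_00000102 lay at 5.06% of the coding sequence, TE_00000240 at 36.5% and TE_00000072 at 67.8%, in 23, 23 and 24 genes. TE_00000072 was on the strand of the gene in all 47 pairs, and TE_00000240 was on the opposite strand in 37 of 39, each relative to its own library entry.

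MpCupin genes, named for a small barrel-shaped protein fold, were reached in 42 of 97 cases (43.3%), 26 by TE_00000076 and 16 by TE_00000303. TE_00000076 lay on the strand of the gene in all 44 pairs, and 44 of its 45 copies touched a coding exon. Expansins, proteins that loosen the cell wall, were reached in 17 of 35 cases, all by TE_00000183, of which 18 of 19 copies touched a coding exon, all on the strand of the gene. Among genes named for late embryogenesis abundant proteins (MpLEA-like), 16 of 55 were reached, all by TE_00000315, and all 23 coding genes of this family lay on chromosome 6. MpPR1 genes, named for a pathogenesis-related protein, were reached in 11 of 19 cases, MpOMT genes (methyltransferases) in 13 of 23 and MpNPF genes (transporters) in 12 of 33. By contrast, of 71 MpPPR genes, named for a repeated helical motif that binds RNA, 2 were reached, and of 34 MpGST genes, 1.

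**Figure D4:**
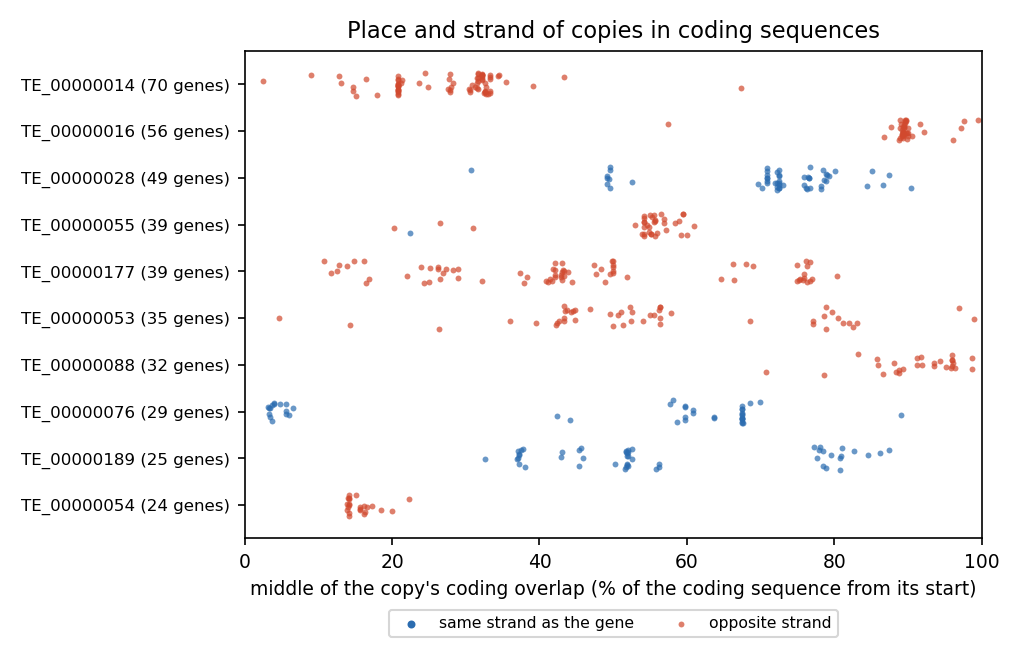
Place of copies along the coding sequence for the 10 families in most coding genes. Each point is a pair of copy and gene, drawn at the middle of its overlap in percent of the coding sequence from the start; blue is the strand of the gene, red the opposite strand. TE_00000014 gathers near 30.5%, TE_00000054 near 15.1% and TE_00000016 near 89.4%, and no family mixes the strands evenly.

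One of the large families differed from these gene families. TE_00000016, with 238 copies of a median of 835.5 bp, touched 56 coding genes, all 63 pairs on the opposite strand, and 43 pairs with coding sequence at a median of 89.4% of it (quartiles 89.2% and 89.8%). The exons of these 56 genes were, at the median, 17.3% of unknown class and 80.6% other elements, of which 97.3% of the bp was LTR elements of no superfamily. A symbol was available for 1 of the 56 genes (MpLAR-like3), and 12 of the 56 had a neighbour holding the same family. The genes were spread over 7 autosomes, with 19 on chromosome 8. Mp1g08755 on chromosome 1 (9013928 to 9019797, minus strand) was an example, with 16.5% of its 5378 exonic bp of unknown class and 81.9% in other elements.

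TE_00000053 and TE_00000088 shared a set of mostly single-exon genes. They touched 35 and 32 coding genes, 31 of which held both, with 31 and 29 on chromosome 4, and 22 and 21 of these genes had a single exon. The exons were a median of 49.4% of unknown class for TE_00000053 and 23.5% other elements, of which 99.3% of the bp was CACTA (DTC) elements. No symbol was available for any of these genes.

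TE_00000139 supplied most of the coding genes with most exonic bp of unknown class. It touched 24 coding genes, 17 of them on chromosome 6, with all 80 pairs on the strand of the gene, and its copies reached 7751 bp. Mp6g16340 (chromosome 6, 17758142 to 17768552, plus strand) had 20 merged exons and 5891 of 6249 exonic bp of unknown class (94.3%). Mp6g16350, Mp6g16370, Mp6g17520 and Mp6g16380 had between 3660 and 5353 bp. In Mp6g16340, Mp6g16350, Mp6g16370, Mp6g17520 and Mp6g16380 alike exactly 358 exonic bp lay outside the repeat, an equal length in each. Mp6g17540 (4896 bp, 578 bp uncovered) and Mp6g17500 (3187 bp, 423 bp uncovered) completed the group. The introns of these genes were covered as well: TE_00000139 had 40709 bp in introns, more than any other family.

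The remaining genes of that list held other families. Mp6g02170 (chromosome 6, 2619514 to 2629165, minus strand) had 4280 bp and Mp6g02210 had 3740 bp of TE_00000019. Mp6g18030, which shared its number with MpRLK-Pelle_WAK3, a receptor kinase, had 2984 bp (81.1%) of TE_00000230.

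After TE_00000139, the families with most intron bp included some with few copies in exons and some found in coding exons, such as TE_00000230 and TE_00000240. The 46 families with at least 50% of copies in coding exons held 34.0% of all intron bp of the class. The families that follow were named after their values were seen. Of the 96 copies of TE_00000171, 81 lay wholly within an intron, in 80 genes on 8 autosomes, and 139 bp of the family lay in exons. TE_00000256 had 75 of 93 copies within introns, in 66 genes, with 73 of 76 pairs on the strand of the host gene. TE_00000237 had 81 of 129 copies in introns, with 62 of 81 pairs on the opposite strand, and TE_00000129 had 80 of 117, with 53 of 80 on the opposite strand. TE_00000123 and TE_00000282 had 39 and 24 intronic copies, each on the strand of the host in every pair.

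Noncoding genes were reached by few families. On the autosomes 90 of 971 noncoding genes (9.27%) held at least 1 exonic bp of unknown class, from 123 copies, and 7 of the 288 families were involved. Of the 90 genes, 87 were reached by TE_00000015 (61 genes), TE_00000094 (22), TE_00000060 (22) and TE_00000002 (20), some by more than 1 of them. The other 3 were Mp3g20615 (TE_00000150), Mp4g11555 (TE_00000256) and Mp6g16845 (TE_00000217), each paired by number with a gene listed as a miRNA in the symbol table, which paired 255 noncoding genes in this way. Per autosome 0.734% ± 0.761 (SD, n = 8) of copies touched a noncoding exon, against 0.236% ± 0.115 for all other elements (higher on 6 of 8; exact permutation, adjusted p = 0.0404). Mutator elements had 0.835% ± 0.490 (SD, n = 8), with the unknown class higher on 3 of 8 autosomes, a difference of -0.101 percentage points that did not pass the test (exact permutation, adjusted p = 0.695). The difference from all other elements leaned on chromosome 1, and without it was 0.288 percentage points in place of 0.498 (exact permutation p = 0.0625).

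Many of the 87 genes shared a few exact lengths, of which those borne by at least 5 touched genes are given. TE_00000015 and TE_00000002 each touched all 11 genes of 1820 bp, and TE_00000015 and TE_00000094 each touched all 5 genes of 2011 bp. TE_00000015 touched all 16 genes of 158 bp, and TE_00000060 touched 19 of 21 genes of 119 bp. In contrast, none of the 496 genes of 71 to 75 bp and none of the 161 of 76 to 90 bp held any. The annotation names no product for these genes. TE_00000015, TE_00000002 and TE_00000094 were on the opposite strand to the gene in all 81, 20 and 22 pairs. TE_00000060 was on the same strand in all 22 and overlapped the gene by exactly 12 bp each time.

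These genes and families formed a block that was repeated. The 10 noncoding genes with most bp of unknown class, ties taken by name, were among the 11 genes of 1820 bp. Each of the 10 had 1649 bp (90.6%) of TE_00000002 and TE_00000015, and the remaining 171 bp were annotated as a Mutator element. Of the 10, 7 lay on chromosome 1 (Mp1g00015b, Mp1g00025b, Mp1g00025d, Mp1g00035j, Mp1g00045g, Mp1g00055d, Mp1g00055j), 2 on chromosome 3 (Mp3g25505b, Mp3g25515a) and 1 on chromosome 4 (Mp4g24135d). Mp1g00015b, for example, ran from 5072 to 6891 on the minus strand. On chromosome 1 a gene of 2011 bp, Mp1g00015d, began at 15718, one of 158 bp, Mp1g00025a, at 19528, one of 1820 bp, Mp1g00025b, at 20833 and one of 119 bp, Mp1g00025c, at 24398. A single copy of TE_00000015 of 4743 bp (16805 to 21547) spanned Mp1g00025a and parts of Mp1g00015d and Mp1g00025b.

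Around these genes stood TE_00000004 and TE_00000006, families without a noncoding exon, and pieces labelled as Mutator, Gypsy and unplaced LTR elements. The 119 bp gene Mp1g00015c lay mostly in a 126 bp copy labelled as an LTR element (13617 to 13742). A repeated unit was thus split among several element classes in the annotation.

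**Figure D5:**
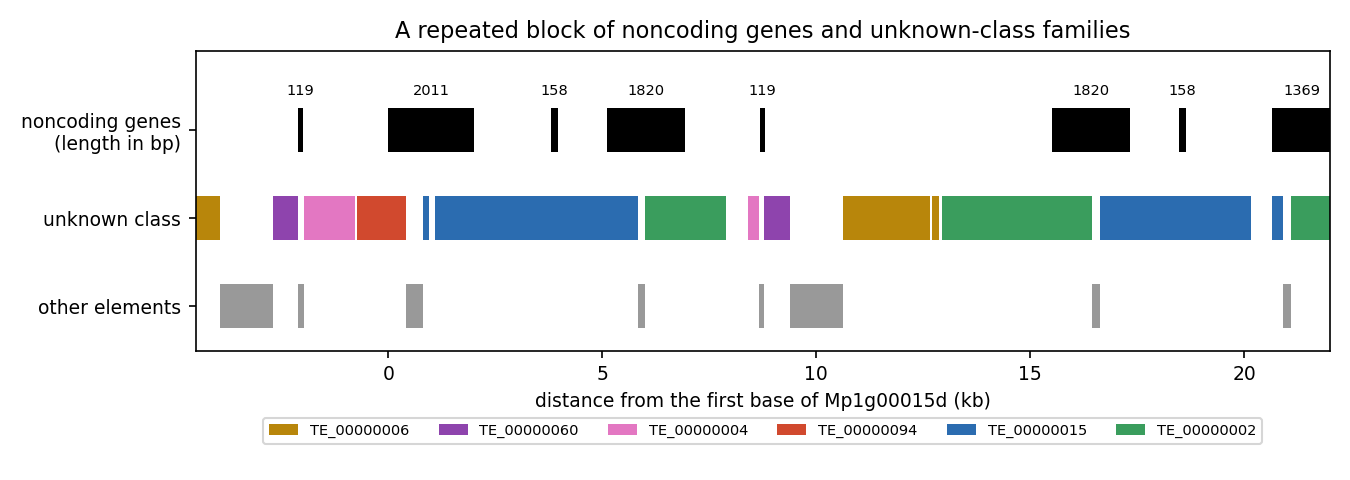
Noncoding genes (top, length in bp), copies of 6 families of unknown class (middle, coloured) and other elements (bottom, grey) near the start of chromosome 1. The horizontal axis is the distance in kb from the first base of Mp1g00015d. Genes of 1820 and 158 bp recur, on both strands though the bars do not show strand, with TE_00000015 (blue) over each 158 bp gene.

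Most groups of these families that held a touched noncoding gene lay near the end of a chromosome. When copies of the 6 families TE_00000094, TE_00000015, TE_00000002, TE_00000006, TE_00000060 and TE_00000004 at most 10 kb apart were joined, 17 of 237 groups held a touched noncoding gene, and these held all 87 genes and 215 of the 483 copies. Of the 17, 12 lay within 100 kb of the first or last annotated base of a chromosome, against 15 of all 237 groups, and these 12 held 65 of the 87 genes. The largest had 46 copies and 22 touched genes in the first 85742 bp of chromosome 1. A second on chromosome 1 (100319 to 164468) had 32 copies and 18 genes, and began just beyond the 100 kb limit. Groups at the far ends of chromosome 3 (27082403 to 27142341) and chromosome 4 (26885126 to 26955266) had 13 touched genes each. By chromosome, 41 of the 90 touched noncoding genes were on chromosome 1, 16 on chromosome 4 and 15 on chromosome 3, and 1 on chromosome 8.

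Runs of copies were found in part of the class. A run was at least 3 copies of a family with at most 500 bp between neighbours, whatever lay between them. There were 486 runs of 100 families with 1970 copies (12.2%), of which 304 had just 3 copies and 19 had 10 or more. Their span ran from 215 to 12271 bp with a median of 1633 bp, and in 410 (84.4%) all copies were on the same strand. Per autosome 12.3% ± 2.01 (SD, n = 8) of copies were in runs, against 7.83% ± 1.47 for all other elements (higher on 7 of 8; exact permutation, adjusted p = 0.0246). With neighbours up to 2000 bp apart the difference was 0.340 percentage points (exact permutation p = 0.789), a difference that no longer passed the test. It was 1.52 percentage points with neighbours at most 100 bp apart (exact permutation p = 0.0312) and 2.35 for runs of at least 5 copies (exact permutation p = 0.00781), in place of 4.49. Against Mutator and unplaced LTR elements the differences of 2.51 ± 4.002 and 1.85 ± 5.03 percentage points (SD, n = 8) did not pass the test (exact permutation, adjusted p = 0.145 and 0.344).

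Runs could be divided by their place. In 173 runs, with 627 copies, a copy touched a coding exon; 312 runs, with 1340 copies, touched no exon, and 1 touched a noncoding exon. Of the 25 families with at least 50% of their copies in runs, 10 had at least 50% of copies in coding exons and 7 had none there. In the 46 families with at least 50% of copies in coding exons, 26.9% of copies were in runs. The share was 10.9% in families with fewer copies there and 9.49% in families with none. Several pieces within a gene count as a run by this definition. All 15 runs of TE_00000177 lay in coding genes, as did all 9 of TE_00000280 and all 10 of TE_00000165. Runs of TE_00000243, TE_00000223 and TE_00000304, the last in MpOMT genes, touched coding exons in 17 of 24, 7 of 9 and 10 of 11 cases.

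Among runs outside exons, those with most copies belonged to TE_00000005 and TE_00000140. TE_00000005 had 232 of 252 copies (92.1%) in 25 runs, 24 of them on 1 strand, and no copy in an exon; 112 of its copies lay on chromosome 1. Its steps from start to start had a median of 204 bp (quartiles 112 and 244.5). The run with most copies of all, 25 in 4224 bp, was of this family, on chromosome 8 from 3104891 to 3109114. Others of TE_00000005 were a run of 20 copies on chromosome 1 (28421392 to 28425463), 16 of them on the plus strand and the rest on the minus strand, and of 18 on chromosome 2 (5805794 to 5809995). All 4 runs of TE_00000318, with 17 copies and a median step of 343 bp, overlapped runs of TE_00000005 on chromosomes 3, 5 and 6. These stretches thus held copies of both families. TE_00000140 had the runs of 22 copies on chromosome 4 (16822396 to 16829043) and of 19 on chromosome 6 (2442109 to 2447180), with a median step of 197 bp (quartiles 182 and 358.8) over its 15 runs.

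Steps were more regular in other families. In the 27 runs of TE_00000148, with 118 copies, the median step was 348 bp (quartiles 344.5 and 373), close to its median copy length of 351 bp. TE_00000052 had a step of 183 bp (quartiles 175 and 191). In TE_00000041 the step was 63 bp at the median and at both quartiles, shorter than the 89 bp median copy of its run of 13 on chromosome 2, so neighbouring copies overlapped. TE_00000147, TE_00000195 and TE_00000180 had looser steps, with medians of 443, 516 and 456 bp. The 5 longest runs included 4 of TE_00000139 on chromosome 6, up to 12271 bp (19135318 to 19147588), each touching coding exons, and 1 of TE_00000180 on chromosome 3 (13342518 to 13354492) that touched none.

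Chromosomes differed in how much of the class they held. Cover by unknown class was 2.91% ± 0.409 (SD, n = 8), from 2.38% on chromosome 1 to 3.41% on chromosome 6. Chromosome 5 had most copies per Mb, 91.7, against 64.6 on chromosome 7. It also had the highest share of coding genes reached, 204 of 2334 (8.74%), while chromosome 1 had the lowest, 73 of 2816 (2.59%). Among the families above, 58 of the 70 genes of TE_00000014 and 22 of the 39 of TE_00000055 lay on chromosome 5.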

How the data were processed

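Per the labels' protocols the RNA libraries were directional; Trim Galore and STAR stand in the submitters' processing notes. No value of a library was in the 2 files, so no library entered a test. Both deposited files are GTF annotations whose values are positions in bp, counted from 1; the authors named them for MpTak1 v5.1 revision 2, and the element file names EDTA in every row. For EDTA, version and options were not given in the sources used here.

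Members, lists and rules were chosen with earlier results of these data known. Exons were the union over transcripts and introns the rest of the gene span. Overlapping copies were merged for bp shares, not for counts. Chromosome length was the last annotated base. Classes were compared by exact 2-sided sign-flip permutation over 8 autosomes, paired within chromosome. Benjamini-Hochberg adjustment was over 22 tests, with a threshold of 0.05. The place in a coding sequence was taken along the union of coding parts. Symbols were taken from an NCBI gene table of another assembly, MpTak2 v7.1, for loci with the same number and a gene length within 5% (16485 of 17624 pairs, 93.5%). No sequence was compared for this. Genes were grouped by symbol without its final number.

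Named were the 10 families with most copies, bp, coding genes, noncoding genes and copies in runs, the 5 runs with most copies and the 5 longest, and the 10 coding and 10 noncoding genes with most bp; other names were added after their values were seen. The measures were tested on simulated copies on 8 chromosomes. Python 3.11.15 with numpy 2.4.6, pandas 2.3.3 and matplotlib 3.10.9 was used.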

Additional observations from a re-analysis of the deposited data

Results flagged for a closer look

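By Dixon's criterion for 8 values, chromosome 1 stood apart from the other autosomes in the share of unknown-class copies that touched a noncoding exon, at 2.41%, with a gap of 0.546 of the range, past the critical value for that number. The other autosomes reached 1.16%. It was the 1 value past the criterion among 10 measures at both ends, and chance passes about 1 in 20 groups. Chromosome 1 held 41 of the 90 touched noncoding genes.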

How the results depend on the processing

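The 8 differences tested (against all other elements, or for strand against 50%) were each recomputed with 1 autosome left out in turn and under a few other settings, which gave 98 values with unadjusted exact permutation p-values. Of these, 90 kept their direction and their side of the threshold. The exceptions were the run share with neighbours up to 2000 bp apart (0.340 percentage points), the noncoding share with at least 50% of the copy in exons (0.0787 percentage points), and the noncoding share with 1 autosome left out, which ranged from 0.288 to 0.573 percentage points and missed the threshold in 6 of 8 cases. The exon difference ranged from 8.10 to 9.85 percentage points with 1 autosome left out and from 8.17 to 9.52 under the other alternatives. The cause of the exceptions was not tested. No paired analysis was possible because the files hold no value of a library. A family is a set of matches to a library entry, and no identity or sequence was read, so the counts of copies rest on how the annotation cut its matches.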
